A study of Mus musculus with 18 samples.

Results

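The inflammasome adaptor ASC was followed in mouse pancreas with sensors, a kinase, inflammatory caspases, the pore protein they cut, cytokines and a receptor antagonist. The 10 genes were Pycard, Nlrp3, Aim2, Nek7, Casp1, Casp4, Gsdmd, Il1b, Il18 and Il1rn. They were taken by symbol from a table of molecule counts for 25651 genes, and all 10 were found. The table holds snap-frozen pancreas of 18 mice: 5 mice labelled KPC ASC KO, 7 labelled KPC and 6 wild type (WT). All were aged 20 weeks under specific-pathogen-free conditions on a mixed 129Sv and C57BL/6 background. KPC commonly names a genetic model of pancreatic cancer, and the labels spell out neither its alleles nor the driver of any Cre. ASC KO marks loss of ASC on top of KPC, and which bases of Pycard were removed, in which cells, is not stated. Sex, litter, batch and histology are not in the labels.

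An inflammasome forms when a sensor such as NLRP3 or AIM2 meets a danger signal and nucleates ASC, which polymerises into a speck and recruits pro-caspase-1. Active caspase-1 cuts the precursors of interleukin-1 beta and interleukin-18 and frees the pore-forming end of gasdermin D, so that the cytokines leave the cell and the cell may die by pyroptosis. The machinery is best known from macrophages and other myeloid cells, and much of its control acts on proteins, which RNA counts do not see.

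The KPC ASC KO libraries held 374432 to 647947 counts, the KPC libraries 452472 to 1626977 and the WT libraries 294077 to 416879. Levels are given as CPM (counts of a gene relative to the counts of its library) after TMM scaling. TMM sets each library's factor from the trimmed mean of its log ratios to a reference library. The factors were 0.557 to 1.19 in KPC ASC KO, 0.967 to 2.28 in KPC and 0.523 to 0.808 in WT libraries. At these depths a single count stood for 1.85 to 4.22 CPM in KPC ASC KO mice, 0.311 to 2.4 CPM in KPC mice and 3.4 to 5.16 CPM in WT mice. Pycard, Casp4, Gsdmd, Nek7 and Il18 were among the 6920 genes that passed the filter on low counts. Casp1, Il1b, Il1rn, Nlrp3 and Aim2 did not, and were fitted only in a second model of all 25651 genes, which is less reliable at such counts. On simulated data for KPC against WT, that second model recovered 103 of 200 genes changed 8-fold and made 26 false calls. Those false calls were a larger share of its calls than the 0.05 threshold on adjusted p aims at. The changed genes all had more counts than the 9 of Nlrp3, which this recovery does not cover. With only KPC ASC KO and WT mice in the fit, 1 member, Pycard, passed the filter. Casp4, Gsdmd, Nek7 and Il18 thus passed it through the KPC mice, a selection that favours calls higher in KPC. Since the tissue was measured whole, fewer cells of a type and less RNA per cell cannot be told apart in any of these values.

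All coordinates are on build GRCm38. Pycard, which encodes ASC, lies on chromosome 7 at 127989708 to 127993867 on the minus strand and has 3 exons. Casp1 (chromosome 9, 5298508 to 5307290) and Casp4 (5308828 to 5336783) are neighbours on the plus strand, 1537 bases apart. Gsdmd lies on chromosome 15 at 75862327 to 75867408, Nek7 on chromosome 1 at 138482875 to 138620141, and Il18 on chromosome 9 at 50554827 to 50581840. Il1b (129364570 to 129371139) and Il1rn (24336853 to 24351494) are both on chromosome 2, Nlrp3 is on chromosome 11 at 59541568 to 59566956, and Aim2 is on chromosome 1 at 173350879 to 173466040. The annotation places other genes over 5 of the 10 loci: Gm45205 over Pycard, Gm28501 and other short transcripts over Nek7, Bco2 and Tex12 over Il18, Il1bos over Il1b and Cadm3 over Aim2. The reads were made in the sense direction, but whether counting used strand is not stated, so counts at these 5 loci could include some from a partner.

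RefSeq promoter windows of 300 bases around the start site (GRCm38.p6, written in the direction of transcription) were found for 9 of the 10 genes. Those of 4 genes are shown, because Pycard is the targeted gene, Casp1 and Il1rn had the largest differences called between KPC and WT among the 10, and Nek7 is the contrast in base composition. Capitals mark matches, on either strand, to a TATA box (TATAAA), a motif of the kind bound by NF-kappaB (GGG, any 5 bases, then CC) and a motif of the kind bound by interferon regulatory factors (GAAA, any 2 bases, then GAAA). The windows are chr7:127993818-127994117 (minus strand) for Pycard, chr9:5298267-5298566 (plus) for Casp1, chr1:138619708-138620007 (minus) for Nek7 and chr2:24336610-24336909 (plus) for Il1rn, the first of 3 listed starts of that gene.
Pycard: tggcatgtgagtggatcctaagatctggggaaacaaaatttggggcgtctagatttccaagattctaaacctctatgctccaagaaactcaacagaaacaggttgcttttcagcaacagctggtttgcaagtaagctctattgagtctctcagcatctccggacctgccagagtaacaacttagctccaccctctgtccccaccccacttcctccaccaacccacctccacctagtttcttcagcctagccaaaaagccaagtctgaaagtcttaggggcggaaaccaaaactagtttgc
Casp1: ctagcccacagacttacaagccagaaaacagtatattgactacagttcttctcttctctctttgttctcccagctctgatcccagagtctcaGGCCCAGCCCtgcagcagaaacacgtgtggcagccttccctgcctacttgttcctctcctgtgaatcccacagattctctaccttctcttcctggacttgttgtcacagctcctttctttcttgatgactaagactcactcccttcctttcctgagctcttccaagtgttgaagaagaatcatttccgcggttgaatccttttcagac
Nek7: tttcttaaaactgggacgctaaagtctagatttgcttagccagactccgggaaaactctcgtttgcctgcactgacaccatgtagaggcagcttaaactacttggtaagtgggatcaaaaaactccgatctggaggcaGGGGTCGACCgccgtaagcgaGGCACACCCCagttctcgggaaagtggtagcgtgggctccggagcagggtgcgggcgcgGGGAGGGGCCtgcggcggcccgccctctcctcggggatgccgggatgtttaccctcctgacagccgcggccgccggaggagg
Il1rn: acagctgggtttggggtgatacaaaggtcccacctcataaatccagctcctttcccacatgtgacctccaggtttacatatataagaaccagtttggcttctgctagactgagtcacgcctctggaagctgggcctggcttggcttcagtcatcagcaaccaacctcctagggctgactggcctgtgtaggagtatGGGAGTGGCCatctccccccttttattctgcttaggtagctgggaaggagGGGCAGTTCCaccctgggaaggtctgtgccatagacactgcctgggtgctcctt
None of the 3 motifs was found in the Pycard window. The Casp1 window held 1 match to the NF-kappaB motif, the Il1rn window 2 and the Nek7 window 3, and 50.8% of all 32851 windows held at least 1. The TATA letters were in none of these 4 windows, against 13.6% of all windows, and the interferon motif was in none, against 3.44% of all. The Nek7 window held 23 CpG dinucleotides, against 3 in Pycard, 3 in Casp1 and 1 in Il1rn. A match in such a window is a description of its letters and not a binding site.

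The first question was whether the adaptor's own RNA followed the genotype labels. Pycard RNA was low but present in every KPC ASC KO mouse, at 34.2, 27.3, 11.1, 5.56 and 21.1 CPM in mice 318, 335, 377, 384 and 388, which were 12, 7, 6, 3 and 5 counts. In KPC mice it ran from 35.1 to 99.5 CPM with a median of 68.5, and in WT mice from 45.4 to 65.5 CPM with a median of 60.4. All 5 KPC ASC KO mice lay below all 7 KPC and all 6 WT mice, although mouse 318 was close to the lowest KPC mouse, 43. Among the 6920 filtered genes, 1.05% had all KPC ASC KO mice below all KPC mice, and 0.477% had them below all WT mice.

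Pycard averaged 19.9 ± 11.7 CPM in KPC ASC KO mice (SD, n = 5), 70.0 ± 24.2 CPM in KPC mice (n = 7) and 58.6 ± 6.95 CPM in WT mice (n = 6). Against KPC it fell by 1.94 on the log2 scale (SE 0.35, edgeR quasi-likelihood test, Benjamini-Hochberg adjusted p = 0.0043). An exact two-sided permutation test of its CPM over the 792 splits of these 12 mice gave p = 0.00379, where the smallest possible is 0.00126. Pycard was the only member called in KPC ASC KO against KPC, where 9.42% of the 6920 tested genes were called, 2.69% lower and 6.73% higher. The unfiltered fit called it too (log2 fold change -2.05, adjusted p = 2.08e-07), among 2.97% of genes called, 1.32% lower and 1.66% higher. It stayed called when each of the 12 mice was left out in turn, at log2 fold changes between -2.26 and -1.62. By CPM, 1.05% of the 6920 filtered genes had all KPC ASC KO mice below all KPC mice. KPC mice 40, 89, 145 and 154 were picked out after the data were seen, for high B cell and T cell marker sums. They were also the KPC mice with the most Pycard, at 68.5 to 99.5 CPM. The remaining KPC mice, 43, 48 and 210, had 35.1 to 55.2 CPM, so leaving the set out had to lower the KPC mean. Without the set, the log2 fold change of Pycard was -1.34 with an edgeR adjusted p of 0.127, and 1 gene in all was then called.

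Against WT, the log2 fold change of Pycard in KPC ASC KO mice was -1.67 (SE 0.38, edgeR adjusted p = 0.14). Of the 6920 genes, 0% were called in this comparison, 691 had an unadjusted p under 0.05, and DESeq2 called 8. Pycard did pass with DESeq2 (adjusted p = 0.0492), with only these groups in the fit (0.0405) and without the filter (0.0089, where 0.0468% of genes were called, 0.0156% lower and 0.0312% higher). In KPC against WT it differed by 0.26 (SE 0.29, adjusted p = 0.519). Libraries of this kind read molecules from their poly(A) end, and since the removed part of Pycard is not stated, counts that remain in KPC ASC KO mice check neither the deletion nor the protein.

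**Figure D1:**
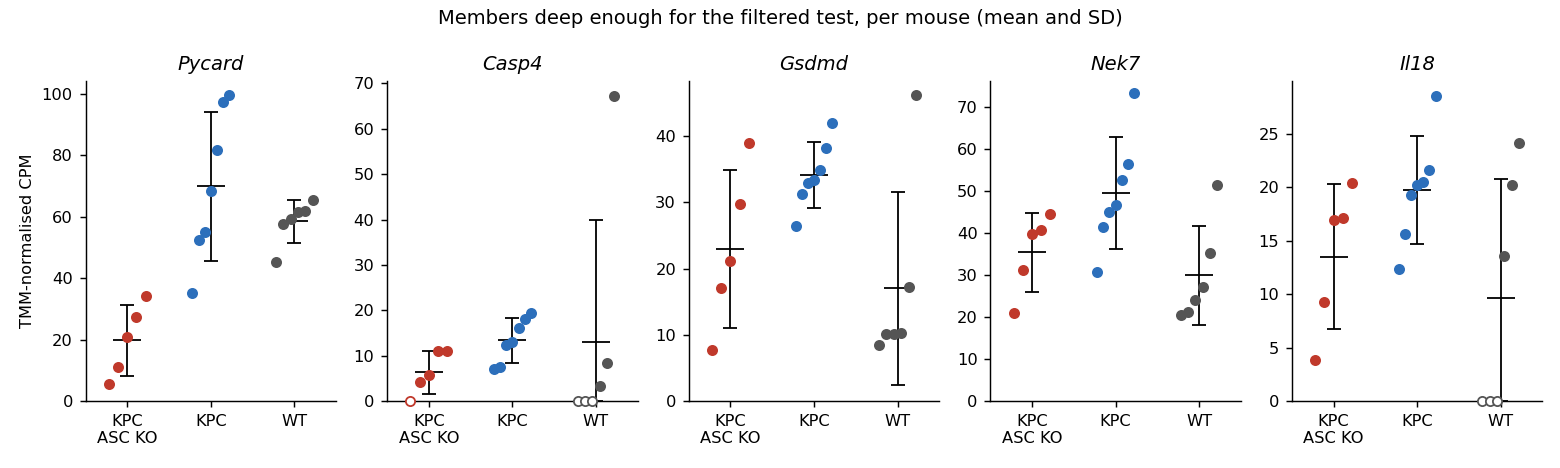
TMM-normalised CPM of the 5 genes that passed the filter on low counts, 1 point per mouse, in KPC ASC KO (n = 5), KPC (n = 7) and WT (n = 6) pancreas, with the mean and SD (bars end at 0 where the SD is larger than the mean, open points are 0 counts). Pycard in the KPC ASC KO mice lies between 5.56 and 34.2 CPM, below every mouse of the other groups, whereas the other 4 genes overlap between all groups.

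Of the sensors, NLRP3, which answers to many kinds of membrane and ion stress, was at the limit of detection. Nlrp3 had 2 counts over the KPC ASC KO mice, 7 over the KPC mice and 0 over the WT mice, and 13 of 18 libraries held none. The 0 in WT allows a pooled level of up to 2.13 CPM (3 counts), above the 1.04 CPM pooled in KPC ASC KO and the 0.676 CPM pooled in KPC mice. The unfiltered edgeR fit called no difference in Nlrp3. Voom called it lower in KPC against WT (-1.24, adjusted p = 0.00629), the reverse of the counts, and higher in KPC ASC KO against KPC (1.21, adjusted p = 0.0276), so no direction is read from these 9 counts.

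Aim2, the sensor of DNA in the cytosol, had 4 counts over the KPC ASC KO mice, 39 over the KPC mice and 2 over the WT mice. Its level was 3.71 CPM in each of KPC ASC KO mice 377 and 384 and 0 in the other 3. KPC mice ran from 0 (mouse 210) to 7.44 CPM (mouse 89) with a median of 3.6, and WT mice 69 and 1238 had 3.4 and 5.05 CPM, with 0 in the other 4. The groups overlapped. The unfiltered edgeR fit gave a log2 fold change of 1.49 (SE 0.99, adjusted p = 0.405) for KPC against WT and -1.02 (SE 0.86, adjusted p = 0.633) for KPC ASC KO against KPC.

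Nek7 encodes the kinase that binds NLRP3 and is needed for its assembly, a role apart from its part in cell division. Its level was 39.9, 31.3, 40.8, 44.5 and 21.1 CPM in KPC ASC KO mice 318, 335, 377, 384 and 388. KPC mice ran from 30.8 to 73.5 CPM with a median of 46.7, and WT mice from 20.5 to 51.6 with a median of 25.7. Every KPC mouse was above the WT median, 3 of the 7 were above every WT mouse, and WT mouse 1213 (51.6 CPM) stood among the KPC values. The means were 49.6 ± 13.4 CPM in KPC (SD, n = 7) and 30 ± 11.9 CPM in WT mice (n = 6), and Nek7 rose by 0.73 on the log2 scale in KPC against WT (SE 0.27, edgeR adjusted p = 0.0441). That call lay at the threshold: it was kept in 5 of 13 fits that each left out 1 mouse, and leaving out any of KPC mice 48, 145 and 210 and WT mice 69, 1197, 1202, 1237 and 1238 ended it, at log2 fold changes of 0.62 to 0.77. It was also lost with DESeq2 (adjusted p = 0.0569), voom (0.143), TMM with singleton pairing (0.0603) and a minimum count of 5 (0.0589), and without KPC mice 40, 89, 145 and 154 (0.79, adjusted p = 0.128). Nek7 differed by -0.41 in KPC ASC KO against KPC (SE 0.26, adjusted p = 0.418).

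Casp1, which encodes the caspase recruited by ASC, had 8 counts over the KPC ASC KO mice, 97 over the KPC mice and 1 over the WT mice. The KPC ASC KO mice had 2.85, 7.81, 5.57, 3.71 and 0 CPM in mice 318, 335, 377, 384 and 388. Of the KPC mice, 89, 145 and 154 stood highest at 16.5, 12.4 and 13.2 CPM, mouse 40 had 7.86, mouse 43 had 4.66, mouse 210 had 3.0 and mouse 48 had none. The only WT value above 0 was 4.24 CPM in mouse 1202, so 5 of the 7 KPC mice lay above every WT mouse.

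Casp1 rose in KPC against WT by a fitted log2 fold change of 3.51 (SE 0.98, unfiltered edgeR fit, adjusted p = 0.00736), where 10.3% of the 25651 genes were called and 6.1% were called higher. The pooled counts gave a KPC to WT ratio of 13.2 with a 95% interval of 2.31 to 526, which covers counting error only. The call was kept in all 13 fits that left out 1 mouse, with DESeq2 (adjusted p = 0.0242) and with voom (0.00849). It was lost without KPC mice 40, 89, 145 and 154, where the log2 fold change was 1.97 with an adjusted p of 0.402. These were the KPC mice with the most Casp1, so leaving them out had to lower the KPC level of Casp1. KPC ASC KO against KPC gave -1.19 (SE 0.65, adjusted p = 0.364) and KPC ASC KO against WT gave 2.33 (SE 1.23, adjusted p = 0.753).

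Casp4 encodes mouse caspase-11, which senses bacterial lipopolysaccharide in the cytosol and cuts gasdermin D without ASC. Inbred 129 strains are known to carry a Casp4 allele that makes no working caspase-11, and the labels of these 129Sv by C57BL/6 mice give no Casp4 genotype. Casp4 had 5.7, 0, 11.1, 11.1 and 4.22 CPM in KPC ASC KO mice 318, 335, 377, 384 and 388. KPC mice ran from 7.2 to 19.5 CPM with a median of 13.0. Of the WT mice, 3 had no count, mice 69 and 1202 had 3.4 and 8.48 CPM, and mouse 1213 had 67.1 CPM from 13 counts.

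That single WT library decided the Casp4 comparison. With it, KPC against WT gave 0.19 (SE 0.68, edgeR adjusted p = 0.86), at 13.4 ± 4.86 CPM in KPC (SD, n = 7) and 13.2 ± 26.6 CPM in WT mice (n = 6). Without WT mouse 1213, Casp4 no longer passed the filter, and the unfiltered fit gave 2.52 with an adjusted p of 0.0146. KPC ASC KO against KPC gave -0.83 (SE 0.7, adjusted p = 0.471).

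Gsdmd encodes gasdermin D, the pore that inflammatory caspases release. Its level was 17.1, 7.81, 29.7, 38.9 and 21.1 CPM in KPC ASC KO mice 318, 335, 377, 384 and 388. KPC mice were close together, at 26.4 to 42 CPM with a median of 33.3. In WT mice 5 lay between 8.48 and 17.2 CPM, below every KPC mouse, and mouse 1237 had 46.1 CPM from 9 counts, above all of them.

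Gsdmd averaged 22.9 ± 11.9 CPM in KPC ASC KO (SD, n = 5), 34.1 ± 5 in KPC (n = 7) and 17.1 ± 14.6 in WT mice (n = 6). It rose by 1.04 on the log2 scale in KPC against WT (SE 0.36, edgeR adjusted p = 0.0324). Together with Nek7 it made 2 members called higher in this comparison, where 29.9% of the 6920 tested genes were called, 14.8% higher. Both passed the filter only with KPC mice in the fit. For Gsdmd, leaving out 1 mouse at a time gave 0.88 to 1.55, and the call was kept in 8 of 13 such fits. It was lost without WT mouse 69, 1197, 1202, 1213 or 1238, at adjusted p-values of 0.0576 to 0.0858, and without KPC mice 40, 89, 145 and 154 (1.06, adjusted p = 0.113). KPC ASC KO against KPC gave -0.48 (SE 0.32, adjusted p = 0.361) and KPC ASC KO against WT gave 0.56 (SE 0.42, adjusted p = 0.67).

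Of the cytokines, Il1b encodes the precursor of interleukin-1 beta, which needs caspase-1 or another protease to become active. Il1b was at 7.42 and 5.56 CPM in KPC ASC KO mice 377 and 384 and had no count in the other 3. KPC mice ran from 0 (mouse 48) to 9.0 CPM with a median of 7.44, and WT mice from 0 (mouse 1202) to 10.3 CPM with a median of 6.77. These are 7, 61 and 8 counts over the KPC ASC KO, KPC and WT mice, and the groups overlapped. The unfiltered fit gave 0.21 (SE 0.68, adjusted p = 0.863) for KPC against WT and -0.9 (SE 0.7, adjusted p = 0.608) for KPC ASC KO against KPC. The pooled KPC to WT ratio of 1.04 had a 95% counting interval of 0.494 to 2.51. That interval covers counting error only, without the spread between mice, so no absence of a difference is read from it.

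Il18, the precursor of interleukin-18, is also made by epithelial cells. It had 17.1, 3.91, 20.4, 9.27 and 16.9 CPM in KPC ASC KO mice 318, 335, 377, 384 and 388. All KPC mice had Il18 counts, at 12.4 to 28.5 CPM with a median of 20.2, whereas WT mice 1202, 1213 and 1237 had none and the other 3 had 13.6, 24.1 and 20.2 CPM. The 3 WT mice with counts lay within the KPC range. Il18 averaged 19.7 ± 5.05 CPM in KPC (SD, n = 7) and 9.66 ± 11.1 CPM in WT mice (n = 6), with a log2 fold change of 0.89 (SE 0.5, edgeR adjusted p = 0.187). KPC ASC KO against KPC gave -0.48 (SE 0.45, adjusted p = 0.523).

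Il1rn encodes the interleukin-1 receptor antagonist, a secreted inhibitor that occupies the receptor without signalling. It was at 26 CPM in KPC ASC KO mouse 377, 16.7 in 384 and 5.7 in 318, with no count in mice 335 and 388. KPC mice ran from 8.99 to 31.5 CPM with a median of 11.5, and 6 of the 7 lay at or below 12. WT mice had at most 1 count each, so that the highest, mouse 1213, was at 5.16 CPM.

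All 7 KPC mice had more Il1rn than all 6 WT mice. Among the 6920 filtered genes, to which Il1rn does not belong, 3.77% showed that order. Il1rn averaged 13.9 ± 7.85 CPM in KPC (SD, n = 7) and 2.13 ± 2.40 CPM in WT mice (n = 6), and rose by 2.69 on the log2 scale (SE 0.72, unfiltered edgeR fit, adjusted p = 0.00489). The pooled counts, 127 in KPC against 3 in WT mice, gave a ratio of 5.75 with a counting interval of 1.92 to 28.3. It was called in all 13 fits that left out 1 mouse, with DESeq2 (adjusted p = 0.0307), and with the filter relaxed to a minimum count of 5 (2.54, adjusted p = 0.026). Without KPC mice 40, 89, 145 and 154 it was still called, at 3.02 with an adjusted p of 0.0046. KPC ASC KO against KPC gave -0.27 (SE 0.48, adjusted p = 0.759), and KPC ASC KO against WT gave 2.41 (SE 0.81, adjusted p = 0.329), with 3 of the 5 KPC ASC KO mice above every WT mouse.

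**Figure D2:**
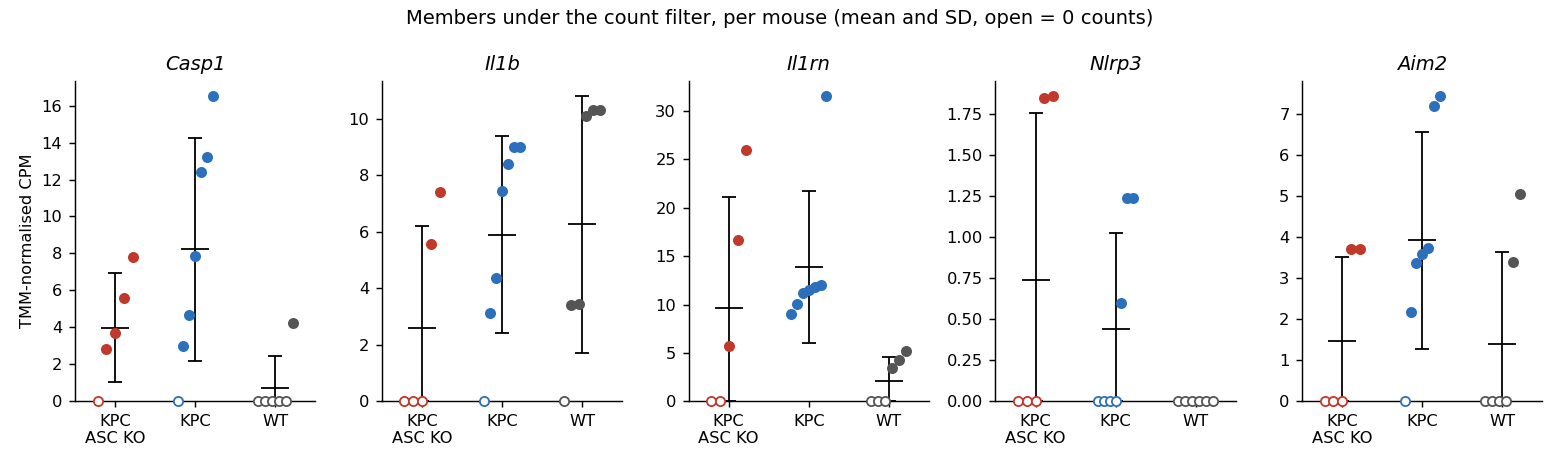
TMM-normalised CPM of the 5 genes under the filter on low counts, 1 point per mouse, with the mean and SD (bars end at 0, open points are 0 counts). All 7 KPC mice lie above all 6 WT mice for Il1rn, WT mice hold a single Casp1 count, and Nlrp3 is at 0 in all WT mice.

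Taking the comparisons in turn, KPC against WT gave 4 members called higher when the 2 fits were read together, Gsdmd and Nek7 with the filter and Casp1 and Il1rn without it. The unfiltered fit also called Gsdmd (adjusted p = 0.0174) and Nek7 (0.0412). Of all genes, 14.8% of the 6920 in the filtered fit and 6.1% of the 25651 in the unfiltered fit were called higher. No member was called lower, against 15.1% of the filtered genes and 4.23% of all genes. In KPC ASC KO against KPC, edgeR called Pycard lower and no other member. There, Casp4, Gsdmd, Nek7 and Il18 had log2 fold changes of -0.83, -0.48, -0.41 and -0.48 in the filtered fit, where the median of all 6920 genes was -0.05. Casp1, Il1b, Il1rn and Aim2 had -1.19, -0.9, -0.27 and -1.02 in the unfiltered fit, which that median does not cover. None of these 8 was called, and whether they fell together was not tested. Nlrp3 had no direction that held across scalings and tools. The KPC mice are shared by this comparison and KPC against WT.

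**Figure D3:**
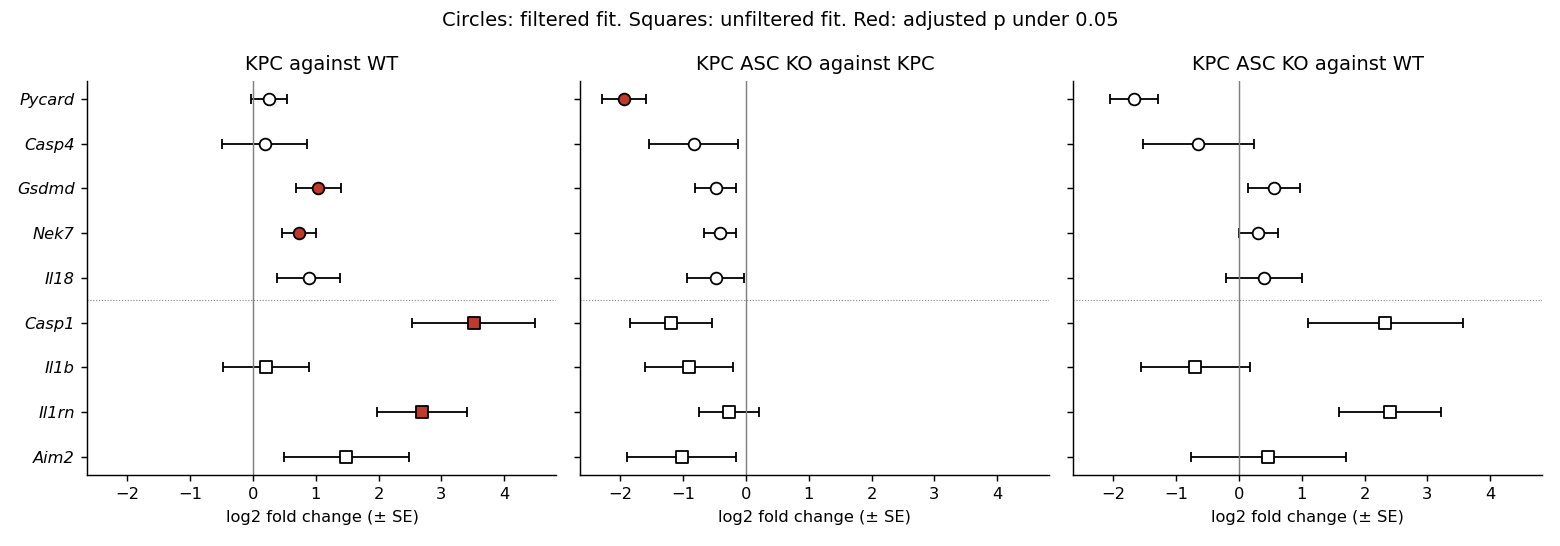
Fitted log2 fold change with its SE for 9 of the genes in each comparison, from the filtered fit (circles) or the unfiltered fit (squares), with red for adjusted p under 0.05. Nlrp3, at 0 in WT, is left out. Red points are Gsdmd, Nek7, Casp1 and Il1rn in KPC against WT and Pycard in KPC ASC KO against KPC.

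Cell type markers moved with several of these genes, and their part in the results was not tested. The summed level of 10 macrophage markers was 279 to 1226 CPM in KPC ASC KO, 764 to 1162 in KPC and 231 to 414 in WT mice, and 5 of the 6 tested markers rose in KPC against WT. The 8 fibroblast markers summed to 899 to 2956 CPM in KPC ASC KO, 1447 to 2844 in KPC and 776 to 1125 in WT mice, and 6 of the 7 tested rose in KPC against WT. The 10 acinar enzyme and regulator genes took 15.6% to 26.8% of counts in KPC ASC KO, 2.2% to 19.4% in KPC and 22.5% to 27.7% in WT libraries. Of these genes, 10 of 10 fell in KPC against WT and 9 of 10 rose in KPC ASC KO against KPC. In the latter, 0 of 6 macrophage and 0 of 7 fibroblast markers were called. Of all 6920 genes, 14.8% were called higher and 15.1% lower in KPC against WT. In KPC ASC KO against KPC these shares were 6.73% and 2.69%. No macrophage, fibroblast, B cell or acinar marker was at 0 in all mice of a group, whereas Ly6g, Mpo and Elane of the monocyte and neutrophil list were at 0 in all WT mice.

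Within the KPC ASC KO group, mice 377 and 384 had macrophage sums of 1226 and 1146 CPM, within or above the KPC range, against 279 to 379 CPM in the other 3. Their fibroblast sums of 2956 and 2760 CPM were also within or above the KPC range, against 899 to 969 CPM in the other 3. Their acinar shares of 18.4% and 15.6% were below the 25.3% to 26.8% of the other 3. Mice 377 and 384 had the highest Il1rn and Gsdmd of their group, and were the only ones in it with Il1b, Aim2 or Nlrp3 counts. A single count stood for 1.86 and 1.85 CPM in them, against 2.85, 3.91 and 4.22 CPM in mice 318, 335 and 388. Low levels were therefore easier to detect in mice 377 and 384. Pycard ran opposite to Il1rn and Gsdmd, with its lowest values in mice 377 and 384. Its 95% counting intervals were 4.09 to 24.2 CPM in mouse 377 and 1.15 to 16.3 CPM in mouse 384, against 17.7 to 59.7 CPM in mouse 318. These intervals cover counting error only, and the intervals of mice 377 and 318 overlap.

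The 8 B cell markers summed to 113 to 189 CPM in KPC ASC KO, 20.2 to 910 in KPC and 106 to 174 in WT mice, and 0 of the 5 tested were called by edgeR in any comparison. Within the KPC group, Casp1 stood highest in mice 89, 145 and 154, whose B cell sums were 808, 898 and 910 CPM. Mouse 40 followed with 7.86 CPM of Casp1 and 489 CPM of B cell markers, and mice 43, 48 and 210 had B cell sums of 20.2, 69.6 and 102 CPM. Pycard was also highest in mice 89, 145 and 154, at 81.8, 97.5 and 99.5 CPM. T cell and dendritic cell sums were high in the same mice, at 368 to 397 CPM and 228 to 252 CPM, against 25.2 to 48.0 CPM and 25.8 to 60 CPM in mice 43, 48 and 210. Monocyte and neutrophil sums were 503, 207 and 211 CPM in mice 89, 145 and 154 and 383 in mouse 40, against 84 to 108 CPM in mice 43, 48 and 210. Macrophage sums overlapped, at 764 to 1041 CPM in mice 89, 145 and 154 and 837 to 1099 CPM in mice 43, 48 and 210. Il1rn did not share the order of Casp1: mouse 210, with 31.5 CPM, was highest, and mouse 154 lowest.

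**Figure D4:**
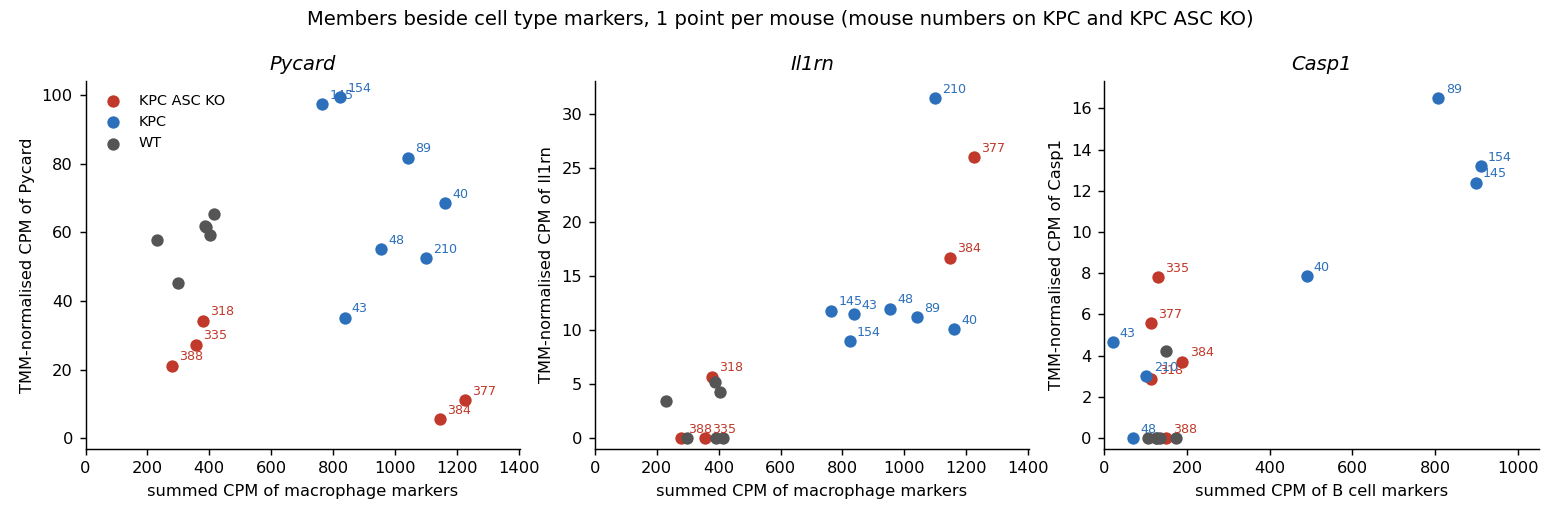
CPM of Pycard and Il1rn against the summed CPM of 10 macrophage markers, and of Casp1 against that of 8 B cell markers, 1 point per mouse, with numbers for KPC ASC KO and KPC mice. KPC ASC KO mice 377 and 384 lie with the KPC mice on the macrophage axis, at the bottom for Pycard and high for Il1rn, and KPC mice 89, 145 and 154 are high on both axes for Casp1.

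The wider pathway was read from 66 further genes in 5 lists, of which 57 were in the table and 21 passed the filter. In KPC against WT, 7 of the 21 rose, 1 fell and 13 were not called. The median log2 fold change of the 21 was 0.62, against 0.06 over all 6920 genes, of which 14.8% were called higher and 15.1% lower. Of those that rose, Nfkb1 alone passed the filter with only KPC ASC KO and WT mice in the fit. In KPC ASC KO against KPC, 0 rose, 1 fell and 20 were not called, with a median of -0.31 against -0.05 over all genes, of which 9.42% were called. Of the 21, 8 had an unadjusted p under 0.05, and DESeq2 called 1. The 8 calls of KPC against WT became 3 without KPC mice 40, 89, 145 and 154, and those lost were Myd88, Nfkb1, Il33, Serpinb1a and Trim30a. None of the 21 was called by edgeR or DESeq2 in KPC ASC KO against WT, where 5 had an unadjusted p under 0.05. Of the 12 further sensors none passed the filter, and the 1 with the most counts, Zbp1, a sensor of nucleic acids, had 13 over KPC ASC KO, 157 over KPC and 9 over WT mice.

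Genes of priming, the step that raises inflammasome transcripts, included 3 of 7 tested that rose in KPC, where 14.8% of all tested genes were called higher. Myd88, the adaptor of Toll-like and interleukin-1 receptors, averaged 24.5 ± 6.08 CPM in KPC (SD, n = 7) and 9.13 ± 7.66 CPM in WT mice (n = 6; log2 fold change 1.51, edgeR adjusted p = 0.0119). Rela and Nfkb1, which encode NF-kappaB subunits, rose by 1.02 (adjusted p = 0.00417) and 1.03 (0.0181). All 7 KPC mice were above all WT mice for Rela, as they were for 3.77% of the 6920 tested genes. The call of Nfkb1 was lost without WT mouse 69 (0.92, adjusted p = 0.0524) and with voom (adjusted p = 0.0678). Cd14, a lipopolysaccharide co-receptor, had 1.17 (adjusted p = 0.0716).

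Of the 3 tested interleukin-1 family genes, 2 rose in KPC, read against the same 14.8% of all genes. Il1r1, the receptor that interleukin-1 beta and its antagonist share, averaged 20.1 ± 3.06 CPM in KPC (SD, n = 7) and 4.43 ± 5.72 CPM in WT mice (n = 6; 2.18, edgeR adjusted p = 0.00354). Il33, an alarmin kept in nuclei, averaged 51.5 ± 23.1 CPM in KPC and 14.8 ± 3.22 CPM in WT mice (1.78, adjusted p = 0.0025), a call that voom did not make (1.46, adjusted p = 0.107). For both genes all 7 KPC mice were above all 6 WT mice, an order that 3.77% of the 6920 tested genes showed. Sigirr, a receptor of the family that restrains signalling, had -0.5 (adjusted p = 0.391).

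Among 9 tested brakes and membrane repair genes, 2 rose and 1 fell in KPC, a share near that of all genes, of which 14.8% were called higher and 15.1% lower. Tnfaip3, which encodes the NF-kappaB inhibitor A20, rose by 2.28 (edgeR adjusted p = 0.0127), and Trim30a, a negative regulator of Toll-like receptor and NLRP3 signalling, rose by 1.71 (0.00546), which voom did not call (1.45, adjusted p = 0.157). Serpinb1a, an inhibitor of neutrophil proteases and inflammatory caspases, averaged 76.2 ± 34.5 CPM in KPC (SD, n = 7) and 154 ± 16 CPM in WT mice (n = 6), a fall of 1.06 on the log2 scale (adjusted p = 0.000972). With libraries scaled by total counts, which moves the median of all genes to 1.41, Serpinb1a was at 0.17, or -1.24 relative to that median (-1.12 with TMM). Chmp4b, a subunit of the membrane repair complex ESCRT, had -0.5 (adjusted p = 0.0609). Neither of the 2 tested executors was called, and Ninj1, which acts in late membrane rupture, had 0.21 (adjusted p = 0.488).

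The 1 call among the 21 in KPC ASC KO against KPC was Trim30a, at 19.2 ± 10.9 CPM in KPC ASC KO (SD, n = 5) and 48.0 ± 25 CPM in KPC mice (n = 7), a log2 fold change of -1.24 (SE 0.4, edgeR adjusted p = 0.0491). That call was kept in 4 of 12 fits that left out 1 mouse. It was lost without KPC mouse 40, 89, 145 or 154 or KPC ASC KO mouse 318, 335, 377 or 388 (adjusted p 0.074 to 0.147) and with voom (-1.01, adjusted p = 0.263), and without KPC mice 40, 89, 145 and 154 the value was -0.12 (adjusted p = 0.93). Next to it stood Nfkb1 at -0.87 (adjusted p = 0.0761), Tnfaip3 at -1.53 (0.0771) and Serpinb1a at 0.61 (0.0809), which voom called higher (0.8, adjusted p = 0.0142).

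**Figure D5:**
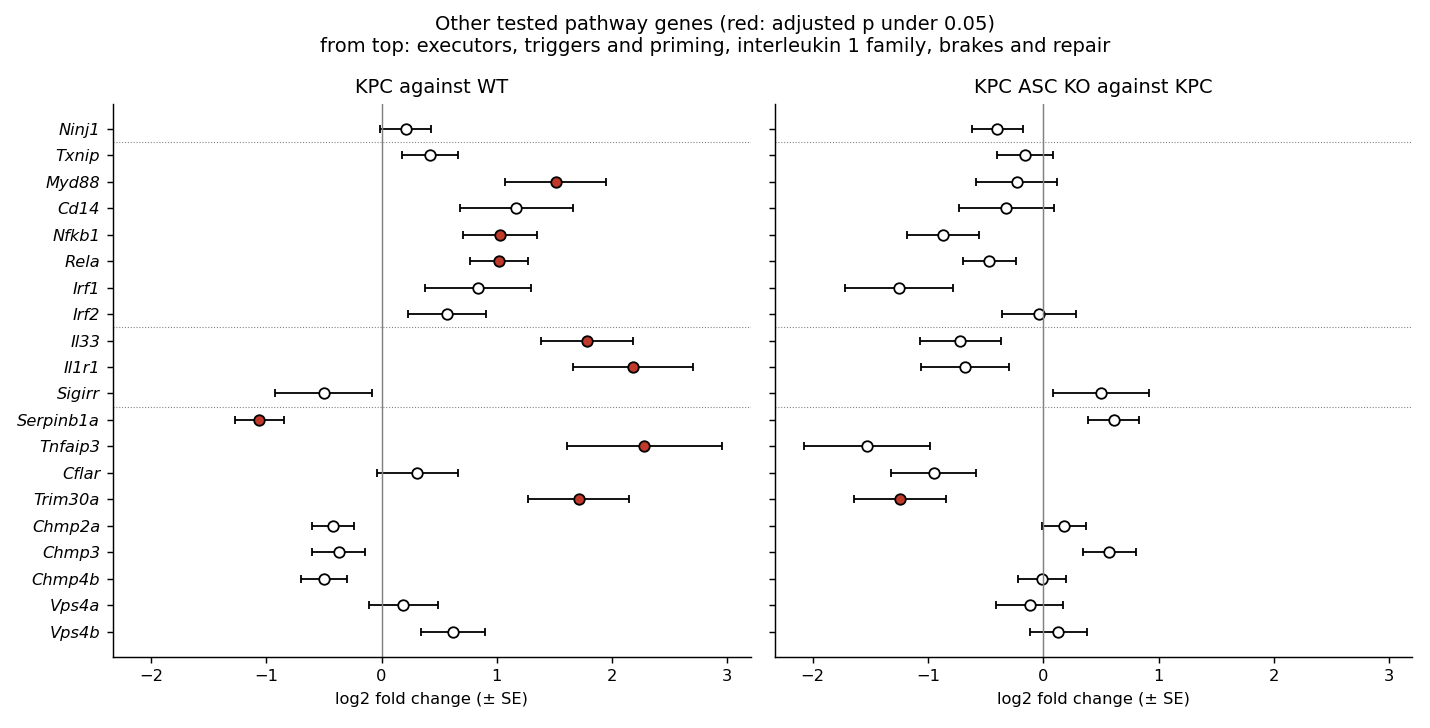
Log2 fold change with its SE for 20 of the 21 further pathway genes that passed the filter, in KPC against WT and in KPC ASC KO against KPC, with dotted lines between lists and red for adjusted p under 0.05. In KPC against WT 7 genes lie to the right and 1 to the left of 0 in red, and in KPC ASC KO against KPC Trim30a is the only red point.

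Genes whose levels varied most like each tested member were sought among 6919 others, on log2 CPM centred on the group means over the 18 mice. For Gsdmd these were Cyp1b1 and Glb1 (Pearson r 0.9 and 0.85), for Il18 Ppie and Emc3 (0.88 and 0.84), for Casp4 Tpm3-rs7 and Ypel5 (0.83 and 0.82), for Pycard Rps18 and Rogdi (0.82 and 0.79), and for Nek7 Rps12-ps21 and Pet100 (0.78 and 0.74). These values are descriptions: all genes of a library share its depth and tissue makeup, and the pairs named are the 2 highest of 6919.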

How the data were processed

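Per the labels, poly(A) priming added a sample index of 8 bp and a unique molecular identifier of 10 bp. The authors deposited whole-number counts per gene, not normalised, in 1 table. Per the submitters' processing notes they used R 4.1.2, edgeR 3.36.0, limma 3.50.0 and builds GRCm38 and mm10. Which aligner and counting rule they used is not given in the sources used here.

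Groups follow the genotype labels. Here edgeR 4.0.16 in R 4.3.3 (filterByExpr with minimum count 10, TMM, robust quasi-likelihood F test on all 18 mice in 3 groups, Benjamini-Hochberg over 6920 genes) was the main test, and a gene was called at adjusted p under 0.05. CPM used the libraries' totals over the tested genes. A second fit held all 25651 genes. Pooled ratios have exact conditional binomial intervals, and single counts exact Poisson intervals (95%). Nothing states that mice of a group came from separate litters, so p-values measure the spread between these mice. Alternatives included DESeq2 1.42.0 and limma-voom 3.58.1. On simulated counts for the 6920 genes, the filtered fit recovered 41 of 100 genes changed 2-fold and 81 of 100 changed 4-fold in KPC against WT, with 2 false calls, and 37 and 81 in KPC ASC KO against KPC, with 7 false calls.

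The genes and lists were chosen with earlier results of these data known. All 10 genes are named whatever their result, with up to 4 genes of each pathway list by smallest p in KPC against WT, any called in KPC ASC KO against KPC, and the 2 genes most alike for each tested member. A gene that this rule names is not reported here. Zbp1 was named after its counts were seen. Promoter windows are from RefSeq (GRCm38.p6).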

Additional observations from a re-analysis of the deposited data

Results flagged for a closer look

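In 29 groups of a gene and a genotype, 4 had a mouse set far from the rest, by the gap to its nearest neighbour as a share of the group's range. The cut-offs flag about 1 in 20 groups of normally distributed values, a rate that does not hold for counts near 0. A group with a single mouse above 0, such as Casp1 in WT mice, is always flagged. Il1rn was at 31.5 CPM (21 counts) in KPC mouse 210, against 12 CPM in the next KPC mouse. Casp4 was at 67.1 CPM (13 counts) in WT mouse 1213, against 8.48 CPM in the next WT mouse. Gsdmd was at 46.1 CPM (9 counts) in WT mouse 1237, against 17.2 CPM in the next. Casp1 was at 4.24 CPM in WT mouse 1202, which is 1 count, with 0 in the other 5 WT mice.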

How the results depend on the processing

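Scaling by total counts, without TMM, moved the median of all genes to 1.41 in KPC against WT, -1.14 in KPC ASC KO against KPC and 0.24 in KPC ASC KO against WT (TMM: 0.06, -0.05 and 0). It called 5684, 5193 and 1 genes, 5 and 5 of the members and 19 and 18 of the other pathway genes in the first and second of these. Of its calls 96.9% were higher in KPC against WT (TMM 49.4%) and 2.73% in KPC ASC KO against KPC (TMM 71.5%). Relative to that median, Pycard stood at -2.01 in KPC ASC KO against KPC (TMM -1.88). In KPC against WT it turned the sign of Sigirr (0.79), Serpinb1a (0.17) and Chmp4b (0.84). It turned Sigirr (-0.64), Serpinb1a (-0.39) and Nlrp3 (-0.25) in KPC ASC KO against KPC, and Ninj1 (0.13) in KPC ASC KO against WT.

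With a minimum count of 5, Il1rn took the place of Nek7 among the 2 members called in KPC against WT. These numbered 4 without the filter. With the filter they numbered 1 with TMM with singleton pairing, DESeq2 and voom, and 0 without KPC mice 40, 89, 145 and 154. In KPC ASC KO against WT they numbered 1 of 10 tested without the filter, 1 of 5 with DESeq2 and 1 of 1 with only the groups compared. In these fits 12, 8 and 8 genes were called. With only the groups compared, KPC ASC KO against KPC called 192 genes in place of 652. Trim30a, the 1 other pathway gene called in KPC ASC KO against KPC, was lost (0 called) with median ratio scaling, singleton pairing, a minimum count of 5, no robust estimation and only the groups compared, and voom called Serpinb1a in its place, whereas 2 were called without the filter, as were 15 in KPC against WT.

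Without KPC mice 40, 89, 145 and 154, chosen after the data were seen, KPC mice 43, 48 and 210 remained. The filtered fit of KPC against WT called 752 genes (605 of them among the 2070), 0 members and 3 other pathway genes. The filtered fit of KPC ASC KO against KPC called 1 gene, 0 members and 0 other pathway genes. Il1rn was still called in the unfiltered fit of KPC against WT. Pycard was then at -1.34 in KPC ASC KO against KPC and at -0.33 in KPC against WT, Il1b at -0.19 in KPC against WT, and Casp1, Myd88 and Il33 at 0.28, 0.04 and 0.05 in KPC ASC KO against KPC. With voom, genes near 0 counts turned: in KPC against WT Il1b (-0.21) and Nlrp3 (-1.24, adjusted p = 0.00629), and in KPC ASC KO against WT Casp4 (0.24), Nlrp3 (-0.03) and Aim2 (-0.29). Chmp4b, at -0.01 in KPC ASC KO against KPC, gave 0.04 with singleton pairing and 0.01 with a minimum count of 5.

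Leaving out 1 mouse at a time gave 0 to 2 members, 1706 to 2325 genes and 7 to 10 other pathway genes called in KPC against WT, 1 member, 157 (without KPC ASC KO mouse 335) to 1068 genes (without KPC mouse 48) and 0 to 5 other pathway genes in KPC ASC KO against KPC, and 0 to 1 genes in KPC ASC KO against WT. The lowest and highest log2 fold changes were -0.14 and 2.52 for Casp4 (0.37 at most while WT mouse 1213 was kept) and -0.06 and 0.4 for Il1b in KPC against WT. In KPC ASC KO against WT they were -0.96 and 1.57 for Casp4, -0.02 and 1.16 for Aim2, -0.33 and 0.03 for Ninj1 and -0.05 and 0.29 for Nfkb1. For Sigirr and Chmp4b in KPC ASC KO against KPC they were -0.12 and 0.74, and -0.09 and 0.07. Apart from Casp4 without WT mouse 1213, the causes were not tested. No paired analysis was possible because the groups share no mouse numbers. Counts of under 20 per mouse limit every member in WT mice.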
